A study of Mus musculus with 6 samples.

Results

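A set of 10 leukocyte integrin genes was followed through the cells of the mouse spleen. They were the β chains Itgb1, Itgb2 and Itgb7 and the α chains Itga4, Itga6, Itgav, Itgae, Itgal, Itgam and Itgax, chosen by their symbols among the 31053 genes of the deposited table. To these 10 genes were added the 2 of 34 antibodies that bind integrin chains, CD11b (the protein of Itgam) and CD11c (the protein of Itgax), so that 12 of 31087 measured features were described. The table named 29 integrin genes in all. The study compared splenocytes of male C57BL/6 mice in 3 groups: mice of 3 months given saline, mice of 20 months given saline, and mice of 20 months given the platelet chemokine PF4 at 5 µg per mL. Every group received 8 tail vein injections of 100 µL over 24 days, and the cells of 5 mice were pooled, which gave 1 RNA and 1 antibody sample per group (6 samples) by CITE-seq, a method that counts messenger RNA and antibody tags in the same single cells. The deposited barcodes fall into 3 libraries, but the sources used here do not say which library belongs to which group. They are therefore numbered 1, 2 and 3, the groups were not set against each other, and no value below describes age or PF4. With 1 pool behind each library there is no replicate check within a group.

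An integrin is a receptor made of 1 α and 1 β chain that holds a cell to other cells or to matrix and signals in both directions across the membrane. Itgal, Itgam and Itgax pair with the β2 chain of Itgb2 to form LFA-1, Mac-1 and the complement receptor αXβ2, which bind ICAM-1, complement fragments and other ligands on leukocytes and endothelium. Itga4 pairs with Itgb1 to form VLA-4, a receptor for VCAM-1 and fibronectin, or with Itgb7 to form α4β7, the gut homing receptor for MAdCAM-1. Itgae pairs with Itgb7 and binds E-cadherin on epithelium, Itga6 forms laminin receptors with Itgb1, and Itgav forms receptors for vitronectin and latent TGF-β. In the spleen these receptors hold marginal zone B cells in place, steer lymphocyte entry, and mark myeloid cells.

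Levels are given as CPM, the UMIs (counted molecules) of a gene scaled to a common total of RNA UMIs (counts per 1e6) of the same cells, after summing the cells of a class. The interval in parentheses after a pooled level is an exact Poisson 95% interval, and that after a share is an exact binomial (Clopper-Pearson) 95% interval. Both cover counting error only and say nothing of differences between mice. Because the assay tags the 3′ end of a molecule, no length scaling was applied, and levels were compared between cells for 1 gene, or as the makeup of a set of chains between cells. A total of 20161 of 29005 barcodes (69.5%) were kept, 4199, 7511 and 8451 by library, with median RNA UMIs per cell of 3741, 3625 and 3765. The 27 clusters gave 12 classes named from fixed markers: 10767 B-like, 129 plasma-like, 5381 T-like, 500 NK-like, 731 neutrophil-like, 59 basophil-like, 530 monocyte-like, 362 dendritic-like, 42 plasmacytoid-like, 367 macrophage-like, 485 erythroid-like and 43 platelet-like cells, with 765 cells unnamed. No integrin gene took part in the clustering or in the markers, so the levels below are not a product of how the cells were named. There were 68 barcode sequences that occurred in more than 1 library.

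The 3 β2 partners lie on mouse chromosome 7 (build mm10), Itgal at chr7:127296260-127335138, Itgam at chr7:128062640-128118491 and Itgax at chr7:128129547-128150657, all on the plus strand. Itgal ends 728 kb before Itgam, and Itgam ends 11.1 kb before Itgax. The other members lie on chromosomes 2 (Itga4 at chr2:79255426-79333123, Itga6 at chr2:71745616-71858416 and Itgav at chr2:83724397-83806916), 8 (Itgb1 at chr8:128685654-128733200), 10 (Itgb2 at chr10:77530252-77565708), 11 (Itgae at chr11:73090583-73147446) and 15 (Itgb7 at chr15:102215995-102231944, minus strand). The 100 bases before the start sites of Itgam and Itgax are shown because these near neighbours had different class patterns in these data. The sequences are RefSeq's for GRCm38.p6, plus strand, at chr7:128062540-128062639 and chr7:128129450-128129549, and capitals mark GAGGAA or its reverse complement TTCCTC, the purine core to which PU.1, a myeloid transcription factor, can bind.
Itgam: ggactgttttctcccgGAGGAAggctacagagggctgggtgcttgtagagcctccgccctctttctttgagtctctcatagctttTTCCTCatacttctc
Itgax: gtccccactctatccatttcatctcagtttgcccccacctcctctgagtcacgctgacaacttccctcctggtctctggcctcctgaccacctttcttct
The Itgam window held 2 matches, beginning at positions -84 and -15 counted back from the start site, and the Itgax window held 0, also when extended to 250 bases. Of 32851 promoters in the RefSeq table, 3227 (9.82%) held the motif in the last 100 bases and 7639 (23.3%) in the last 250. The table held 6 of the 10 members, of which Itgb1 and Itgav had 1 match each within 100 bases and Itgb7 and Itga4 had 0. A match is a run of letters and not a measured binding site, and its absence from a window says nothing of the factor.

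Among the β chains, Itgb1 was highest in NK-like cells, with a pooled level of 1106 CPM (1061–1153). They had 834, 1221 and 1132 CPM in libraries 1, 2 and 3, the highest in each library among classes with at least 30 cells in all of them. The few platelet-like cells had 1351, 760.3 and 1035 CPM, from 14, 69 and 35 UMIs, and basophil-like cells 1055, 842 and 759, so that both stood above NK-like cells in library 1 and below them in libraries 2 and 3. Pooled, these small classes overlapped each other, at 875 (724–1047) and 872 (763–993), and platelet-like cells took the lead when library 2 was left out, when cells were thinned to equal depth or when cells were averaged one by one. Monocyte-like cells had 519, 659.7 and 700.3 CPM by library. Itgb1 thus stood above 500 CPM in cells of both the lymphoid and the myeloid side. In T-like cells it was 390.4, 406 and 245 CPM. In B-like cells it was 222, 169.8 and 69.7 CPM, the widest split between libraries of any member in B-like cells that passed the filter below. Neutrophil-like cells were lowest when pooled, at 71.9, 131 and 101 CPM, and their pooled 85.1 (74.4–96.8) overlapped the 89.7 (76.7–104) of plasma-like cells.

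Itgb2, the chain shared by LFA-1, Mac-1 and αXβ2, was high in 3 classes: NK-like cells at 387, 508 and 592 CPM, monocyte-like cells at 404, 448 and 582, and neutrophil-like cells at 444, 468 and 574. The top class was neutrophil-like in library 1 and NK-like in libraries 2 and 3, and pooled monocyte-like 483 (461–506) and neutrophil-like 473 (447–499) overlapped. T-like cells had 211, 171 and 142 CPM, and B-like cells 40.7, 58.2 and 50.3. The lowest level was in erythroid-like cells, 12.3 (8.75–16.7). Itgb7 was highest in the 59 basophil-like cells, at 372, 265 and 344 CPM, which overlapped the 213 (166–270.1) of plasmacytoid-like cells when pooled at 312 (248–388). T-like cells had 174, 165 and 213 CPM of Itgb7, close to monocyte-like cells at 187, 168 and 172, and B-like cells had 115, 98.1 and 88.6. Erythroid-like cells were again lowest, at 14.7 (10.8–19.5).

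**Figure D1:**
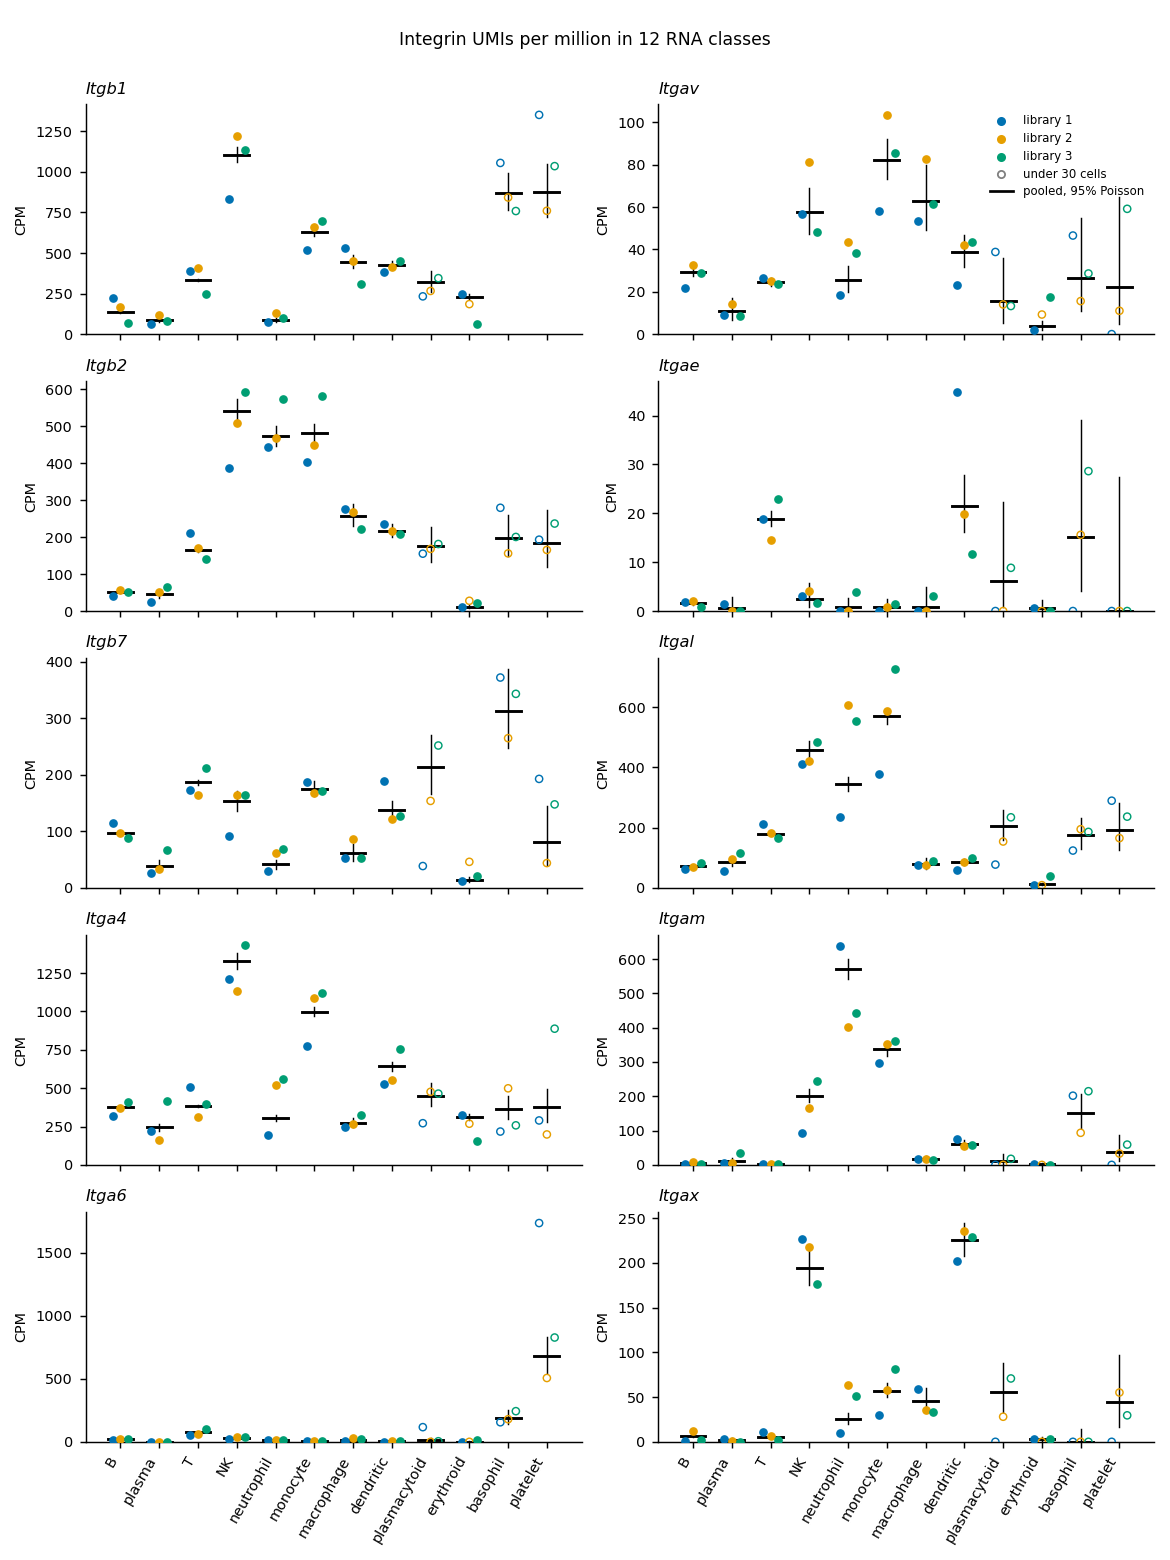
Level of each of the 10 integrin genes (CPM, linear axis from 0, a scale of its own per gene) in the 12 RNA classes. Points are libraries (open where the class holds under 30 cells of that library), and bars with lines are the pooled level with its Poisson 95% interval. Itgb1 and Itga4 stand highest in NK-like cells when pooled, Itgam in neutrophil-like cells at 569.9 CPM, and Itgax in dendritic-like and NK-like cells at 225 and 194 CPM.

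The 3 β chains made up different shares in different classes. Of all UMIs of the 3 β genes, Itgb2 made 78.8% (76.8–80.8) in neutrophil-like cells, 37.5% (36.1–38.9) in monocyte-like cells, 30% (28.5–31.5) in NK-like cells and 4.75% (3.42–6.41) in erythroid-like cells, where Itgb1 made 89.5%. Itgb7 made 34.1% (33.2–35) in B-like and 27.2% (26.5–27.8) in T-like cells, against 6.97% in neutrophil-like and 8.53% in NK-like cells. B-like cells changed most by library among these, from 58.8% Itgb1 in library 1 through 52.1% to 33.4% in library 3. T-like cells ran from 22.5% and 22.3% Itgb7 in libraries 1 and 2 to 35.5% in library 3.

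Among the partners of β1 and β7, Itga4 was highest in NK-like cells in every library, at 1209, 1135 and 1433 CPM, with monocyte-like cells next at 778, 1089 and 1118. Dendritic-like cells followed at 641 (611–673). T-like cells at 382 (375–389) and B-like cells at 378 (372–385) did not differ beyond counting error when pooled, although T-like cells were above B-like cells in library 1 (506 against 316) and below them in library 2 (313 against 369). Neutrophil-like cells had 195 CPM in library 1 against 521 and 557 in libraries 2 and 3. Itga6 was highest in the 43 platelet-like cells, at 1737, 507 and 828 CPM from 18, 46 and 28 UMIs, and in basophil-like cells at 190.4 (141–251). Among classes with at least 30 cells in every library T-like cells led, at 50.1, 62.4 and 97.9 CPM, a separation with no overlap from NK-like cells at 18.9, 35.5 and 36.8 and B-like cells at 15.2, 19.5 and 21.6. Monocyte-like cells had 6.49 CPM of Itga6 (4.16–9.66).

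Itgav was low throughout. Its level was highest in monocyte-like cells, at 58.4, 103 and 85.4 CPM, and the pooled 82.2 (73.2–92) overlapped macrophage-like cells at 63.1 (49.2–79.7), which overlapped NK-like cells at 57.5 (47.5–68.9). Itgae, the rarest member with 714 UMIs in all kept cells, was found in dendritic-like cells at 44.8, 19.9 and 11.7 CPM and in T-like cells at 18.8, 14.6 and 23. These 2 classes overlapped, at 21.4 (16.2–27.8) and 18.9 (17.3–20.6). The 4 UMIs in basophil-like cells gave 15.2 CPM (4.15–39), and every other class was at or below 6.19. On the opposite strand Itgae overlaps Haspin, which had 958 UMIs, and Itga4 overlaps Cerkl, which had 546, so reads of these pairs may be shared where the counting did not use strand.

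Among the α partners of β2, Itgal was highest in a different class in each library. Monocyte-like cells had 378, 587 and 726 CPM, NK-like cells 412, 420.1 and 485, and neutrophil-like cells 235, 608 and 553. NK-like cells led in library 1, neutrophil-like cells in library 2 and monocyte-like cells in library 3. T-like cells had 212, 183 and 164 CPM and B-like cells 61.5, 69.5 and 82.3, so Itgal, like Itgb2, was lower in B-like than in T-like cells in all 3 libraries. Erythroid-like cells had 13.5 CPM (9.79–18.1).

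Itgam was highest in neutrophil-like cells in all libraries, at 638, 401 and 443 CPM, followed by monocyte-like cells at 298, 352 and 360.2 and NK-like cells at 94.4, 167 and 244. Basophil-like cells at 152 (109–207) overlapped NK-like cells at 202 (183–223). B-like cells had 2.6, 9.48 and 2.41 CPM, and T-like cells were lowest at 1.43 (1.02–1.95). Gm49368, a gene on the same strand that overlaps Itgam, had 249 UMIs against 3725 of Itgam, so a small share of Itgam reads is uncertain. Itgax, the αX chain, had 202, 235 and 229 CPM in dendritic-like cells and 227, 217 and 176 in NK-like cells. NK-like cells were ahead in library 1 and dendritic-like cells in libraries 2 and 3, and the pooled intervals, 225 (208–244) and 194 (175–214), overlapped. Monocyte-like cells had 30, 58.2 and 80.9 CPM, and 0 UMIs were counted in basophil-like cells, which allows up to 14.1 CPM.

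**Figure D2:**
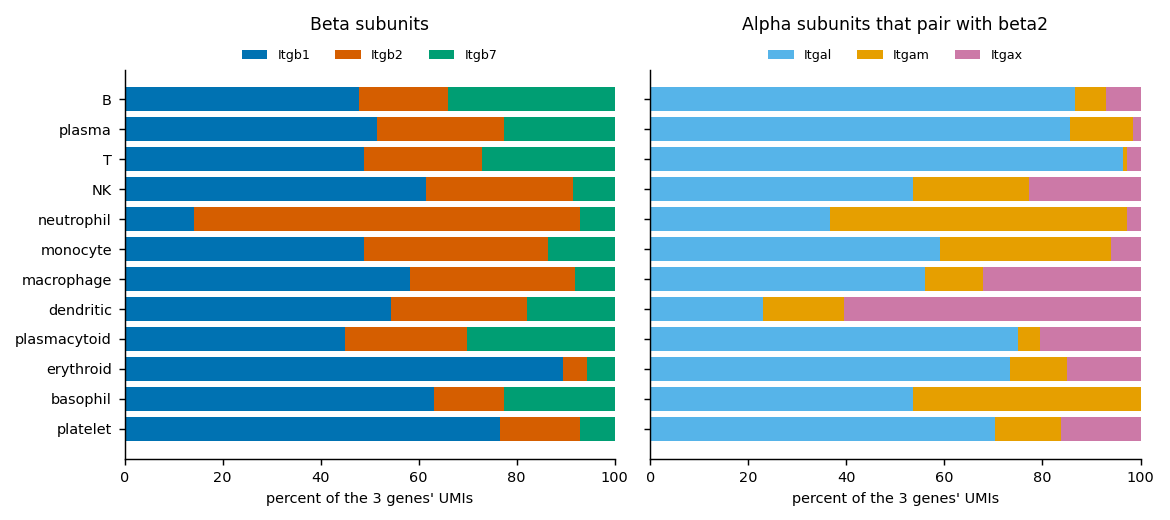
Makeup of the β chain UMIs (Itgb1, Itgb2, Itgb7) and of the β2 partner UMIs (Itgal, Itgam, Itgax), in percent of their sum for each class, all libraries pooled. Itgb2 makes 78.8% of the β chains in neutrophil-like cells, and Itgax makes 60.5% of the β2 partners in dendritic-like cells.

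The makeup of the β2 partners separated the classes. Itgal made 96.4% (95.9–96.9) of the UMIs of Itgal, Itgam and Itgax in T-like cells and 86.7% (85.5–87.9) in B-like cells. In monocyte-like cells the 3 genes made 59.1%, 35% and 5.95%, and in NK-like cells 53.7%, 23.7% and 22.7%. In dendritic-like cells Itgax made 60.5% (57.4–63.6). In neutrophil-like cells Itgam made 72.2% in library 1, 37.4% in library 2 and 42.3% in library 3, a split between libraries taken up with the neutrophil clusters below.

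The share of cells with at least 1 UMI gave a like picture at equal depth. Each cell was thinned to 1000 UMIs, and shallower cells were left out. Itgam was then found in 37.5% (33.7–41.5) of neutrophil-like cells, 29% (25.1–33.1) of monocyte-like cells and 16.5% (13.3–20.1) of NK-like cells. Without thinning these shares were 65.1%, 79.2% and 42.8%, at median depths of 2300, 6687.5 and 3693.5 UMIs per cell, so the order of neutrophil-like and monocyte-like cells turned with depth and the thinned order is the one that follows the CPM. T-like cells, which serve as background for Itgam, had a UMI in 0.115% (0.0422–0.25) at a median depth of 5070, and erythroid-like cells in 0 of 438, which allows up to 0.839%. For Itgax the shares were 18.9% (14.9–23.4) in dendritic-like and 15.6% (12.5–19.2) in NK-like cells, against 0.228% (0.00578–1.27) in erythroid-like cells at a median depth of 5255. B-like cells, at 0.496% (0.367–0.655), and T-like cells, at 0.575% (0.388–0.82), lay within the erythroid-like interval for Itgax. That interval rests on 1 of 438 cells, so it cannot tell a low level of Itgax from background. A UMI of Itgal was found in 46.9% of monocyte-like cells, in 17.9% of T-like cells and in 7.64% of B-like cells, against 0.913% (0.249–2.32) in erythroid-like cells.

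Within the classes, the members changed level from one cluster to another. Ratios of clusters are given as descriptions with counting intervals. Among B-like cells, Itgb1 was low and even in the largest B-like cluster, at 41, 42.7 and 41.7 CPM in libraries 1, 2 and 3, and high in the cluster led by B1 markers such as Bhlhe41 and Zbtb32, at 559, 788 and 413. The name B1 rests on the list of markers. The leading genes also included Apoe and Zbtb20, Zbtb32 is known from atypical B cells as well, and the 2 types of B cell were not told apart here. The pooled ratio of this cluster to the largest was 15.5 (14.3–16.8), with library values of 13.6, 18.4 and 9.9. Marginal zone-like cells lay between them at 161, 131 and 82.7 CPM of Itgb1. The B1 cluster held 324, 400 and 50 cells, which were 17.9%, 9.2% and 1.1% of B-like cells in libraries 1, 2 and 3. Itgb1 of all B-like cells ran in the same order, and Itgb1 within the B1 cluster in another. The part of these shares in the level of the class was not tested beyond leaving the cluster out, as given below.

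In the same cluster the level of the β2 partners Itgam and Itgax differed by library. Itgam had 6.39, 52.2 and 28.6 CPM there, against 0.612, 1.97 and 1.34 in the largest B-like cluster. Libraries 2 and 3 were 8.16-fold (4.56–15.9) and 4.47-fold (1.69–11.3) above library 1, and their own ratio of 1.82 (0.924–4.11) included 1. Itgax had 0.983, 73 and 12.7 CPM, so that library 2 was 74.3-fold (20.2–619) above library 1 and 5.75-fold (2.2–21.4) above library 3. Itga4 was lower in the B1 cluster than in the largest one in all 3 libraries, at a ratio of 0.653, 0.886 and 0.771. Itgb7 was higher, at a ratio of 2.19, 1.12 and 1.65, of which the interval in library 2 (0.955–1.31) included 1.

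**Figure D3:**
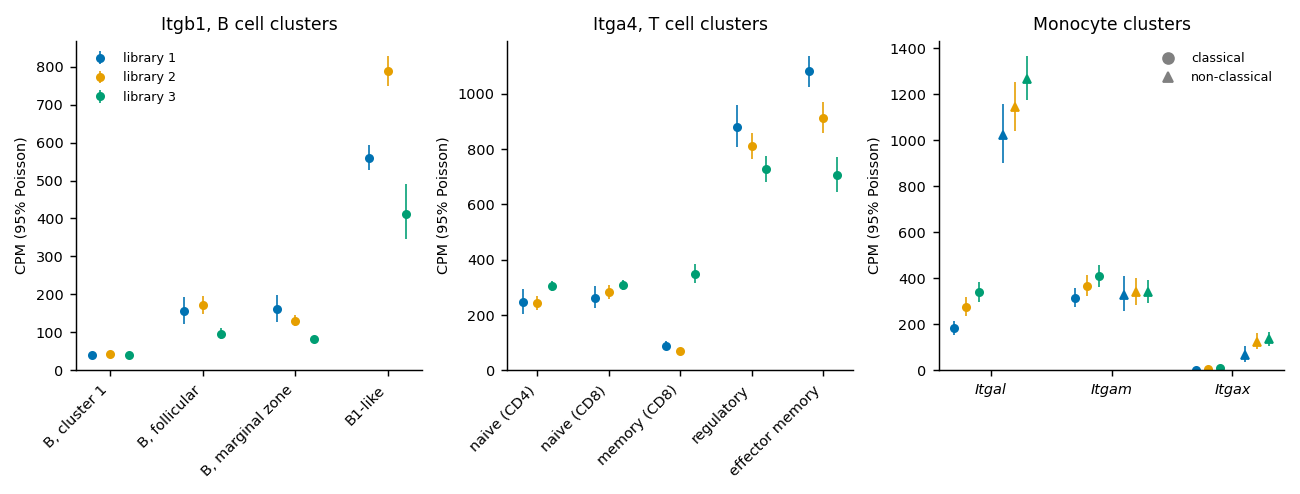
Itgb1 in B-like clusters, Itga4 in T-like clusters, and Itgal, Itgam and Itgax in classical (circles) and non-classical (triangles) monocyte-like cells, as CPM on linear axes from 0, with 1 point per library and its Poisson 95% interval. Itgb1 stands at 413 to 788 CPM in the B1 cluster against 41 to 42.7 in the largest B-like cluster, and Itga4 of the memory CD8 cluster stands at 350.2 CPM in library 3 against 89.2 and 68.8 in libraries 1 and 2.

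Among T-like clusters, Itgb1 was 35.3, 51.4 and 50.3 CPM in the naive CD4 cluster and 61.6, 68.2 and 67.8 in the naive CD8 cluster. It was 446, 419 and 405 in the cluster led by memory CD8 markers, 399, 593 and 746 in that led by effector memory markers such as Gzmk, and 894, 1022 and 973 in that led by Foxp3 and other regulatory markers. The regulatory cluster was 19.9-fold (17.6–22.5) above the naive CD4 cluster. Itga4 gave another order. It was 263, 283 and 309 CPM in naive CD8 cells and 1081, 913 and 706 in effector memory cells, but in memory CD8 cells it was 89.2 (75.5–105) in library 1, 68.8 (61.9–76.2) in library 2 and 350.2 (317–386) in library 3. The library 3 level was 3.93-fold (3.25–4.77) and 5.09-fold (4.41–5.89) above those of libraries 1 and 2, whereas Itgb1 in the same cells had 405 to 446 CPM in all 3. The memory CD8 cluster held 231, 658 and 160 cells by library.

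Itgae split the T-like clusters by lineage and by state. It was 55.9, 29.3 and 44.6 CPM in naive CD8 cells and 53, 47.8 and 30.1 in regulatory cells, against 3.92, 2.03 and 1.3 in naive CD4 cells, 5.31, 5.14 and 4.4 in memory CD8 cells and 5.25, 8.35 and 10.4 in effector memory cells. When pooled, the naive CD8 and the regulatory cluster did not differ beyond counting error, at 41.6 (36.9–46.7) and 41.8 (35.3–49.2). By library, naive CD8 cells were below regulatory cells in library 2 (29.3 against 47.8) and above them in library 3 (44.6 against 30.1). Itga6 was highest in the naive CD4 cluster at 82.3, 118 and 126 CPM and lowest in effector memory cells at 40.5, 33.4 and 28.3. Itgal was 365, 311 and 384 CPM in effector memory cells, against 85.9, 84.7 and 113 in naive CD8 cells, a pooled ratio of 3.42 (3.11–3.77), and Itgb2 gave a ratio of 3.14 (2.85–3.47) between the same clusters. The effector memory cluster held CD4 T cells too, and made 35%, 23.9% and 25.8% of the CD44-high CD4 cells gated below. Lineage and state are thus mixed in these ratios.

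Neutrophil-like cells formed 2 clusters with unlike integrins. The cluster of 138 cells led by granule genes of immature neutrophils held 136 cells of library 1, where it made 36.5% of neutrophil-like cells, against 0.7% and 0.5% in libraries 2 and 3. In library 1 it had 710.3 CPM of Itgam, 98.5 of Itgal and 44.1 of Itga4, whereas the cluster of the other 593 neutrophil-like cells had 476, 539 and 532 in the same library. Itga4 and Itgal were therefore at a ratio of 0.083 (0.0612–0.111) and 0.183 (0.147–0.226) between the clusters, and Itgam at 1.49 (1.3–1.72). Without the granule cluster the 3 libraries were close: Itgam had 476, 411 and 435 CPM, Itgal 539, 633 and 555, and Itga4 532, 545 and 555.

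A finer clustering, with boundaries of its own, gave 260 classical and 234 non-classical monocyte-like cells. Itgal was 183, 276 and 340.2 CPM in classical and 1023, 1143 and 1268 in non-classical cells, 4.48-fold (4.06–4.94) apart. Itgax was 2.55, 4.53 and 8.51 against 66.6, 125 and 135 CPM, 23-fold (12.5–47.2) apart. Itgam did not differ beyond counting error, with 314, 367 and 408 CPM in classical and 329, 340.2 and 339.9 in non-classical cells and a pooled ratio of 0.935 (0.828–1.06). Itgb2, Itgb1 and Itgav were higher in non-classical cells, at pooled ratios of 2.19 (1.99–2.41), 2.27 (2.08–2.47) and 2.54 (1.99–3.26), and Itgb7 was lower at 0.562 (0.466–0.676). Itga4 gave ratios of 2.04, 1.36 and 1.09 by library, of which the last interval (0.984–1.21) included 1.

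The same finer clustering gave 232 dendritic-like cells with type 2 markers and 167 with type 1 markers. Itgam was 151, 132 and 96.3 CPM in type 2 and 7.74, 4.77 and 5.78 in type 1 cells, 20.8-fold (9.93–52.4) apart, and Itgae went the other way, with 2.1, 0 and 6.6 CPM in type 2 and 92.9, 40.5 and 17.3 in type 1 cells. The pooled level of Itgae was 12.2-fold higher in type 1 cells, although the interval of the ratio of type 2 to type 1 in library 3 (0.1–1.26) included 1. Itgax was present in both, at 208, 264 and 290.3 CPM in type 2 and 124, 186 and 158 in type 1 cells, a ratio of 1.62 (1.37–1.93).

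The spread of the members between libraries was read against that of all genes. A gene of at least 50 CPM in a class was called where its highest library was 1.5 or more times its lowest, which describes the libraries and names no group. In B-like cells 4.22% of 3128 genes were called, and 1 of the 5 members that passed the filter, Itgb1, at a ratio of 3.18. Without the B1 cluster 0 members were called, and 0.797% of genes. In T-like cells 7.4% of 2931 genes were called, and 3 of 6 members, Itgb1 (1.66), Itga4 (1.61) and Itga6 (1.95). T-like cells lay in different clusters by library: 10.5%, 14.7% and 32.4% in the naive CD4 cluster, 11.7%, 15.5% and 30.6% in the naive CD8 cluster, 23.1%, 32.4% and 6.81% in the memory CD8 cluster and 32.4%, 12.7% and 6.42% in the effector memory cluster. The part of these shares in the spread was not tested. In neutrophil-like cells 66.4% of 2622 genes were called, and 4 of 5 members, a share near that background, led by Itga4 (2.86) and Itgal (2.59). Without the granule cluster 1 member was called, Itgb1, beside 39.5% of genes. In monocyte-like cells 19.5% of 3324 genes and 3 of 8 members were called, Itgax (2.70), Itgal (1.92) and Itgav (1.77). The median ratio of the members and of all genes was 1.34 and 1.16 in B-like, 1.55 and 1.18 in T-like, 1.82 and 1.71 in neutrophil-like and 1.44 and 1.28 in monocyte-like cells.

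Naive and memory T cells were compared within each library, because every library held both. T-like cells were gated by the CD8a and CD4 antibodies and split by the CD44 antibody, which is low on naive and high on memory cells. The split was set at a posterior of 0.5 of a mixture fitted in each library. Separation of the 2 CD44 modes is given as Ashman's D, their distance in units of their spread. It was 2.12, 3.76 and 3.62 by library for CD8 T cells, against 1.98, 2.30 and 3.05 for CD4 T cells. The highest count called low was 145, 103 and 68 for CD8 and 103, 174 and 183 for CD4 T cells. The CD44 split thus differed between libraries, and how purely it parts naive from memory cells was not tested. The CD8 gate held 242, 354 and 670 CD44-low and 265, 687 and 206 CD44-high cells in libraries 1, 2 and 3, and the CD4 gate 193, 577 and 1091 against 206, 222 and 186. A gene of at least 20 CPM in either gate was called where it differed by 1.5-fold or more in the same direction in all 3 libraries. The call is a rule of size and not a test.

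In CD8 T cells Itgb1 was higher in CD44-high cells and Itgae was lower. Itgb1 had 139, 80.2 and 61.9 CPM in CD44-low and 471, 437 and 334 in CD44-high cells, a median of 5.4-fold (3.39 to 5.44 over the libraries). Itgae had 35.1, 30.6 and 54.1 CPM in CD44-low and 6.13, 4.9 and 8.99 in CD44-high cells, lower by a median of 6.01-fold (5.73 to 6.24). The CD44-low and CD44-high levels did not overlap for either gene, which the call favours, and the share of all genes without overlap is not given here. Itgae, at a pooled 44.2 CPM in CD44-low and 5.85 in CD44-high cells, passed the filter only through the gate where it was high, which favours a call, whereas Itgb1 passed in both. Of all 5841 genes 1.97% were called higher and 1.58% lower, and 7 members passed the filter, with a median log2 difference of -0.54 against -0.03 over all genes. The other 5 were not called. Itgb2 had 205, 113 and 101 against 200.2, 182 and 167 CPM, and Itgal 208, 111 and 114 against 184, 177 and 191. Both were above 1.5-fold in libraries 2 and 3 and not in library 1. For CD8 T cells the CD44 modes were least separated in library 1 (Ashman's D of 2.12). The part of that split in these values was not tested.

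Itga4 likewise differed by library in the CD8 gate, with 629, 343 and 327 CPM in CD44-low and 268, 142 and 329 in CD44-high cells: lower in CD44-high cells in libraries 1 and 2, and level in library 3. The clusters behind the gates also differed. The effector memory cluster made 43.4%, 7.6% and 0.0% of the CD44-low CD8 cells by library, and the naive CD8 cluster made 36.4% of the CD44-high CD8 cells of library 3. Their part in these values was not tested beyond leaving the effector memory cluster out, which added Itgal to the members called higher. Without that cluster 2.9% of 5792 genes were called higher. Itgax, under the filter, had 9.2, 1.58 and 0.27 CPM in CD44-low and 20.1, 10.2 and 6.23 in CD44-high cells and was called with a filter of 5 CPM. At a pooled 2.21 against 11.6 CPM it passed that filter only in CD44-high cells, which favours a call. Its CD44-low levels rest on 11, 3 and 1 UMIs.

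**Figure D4:**
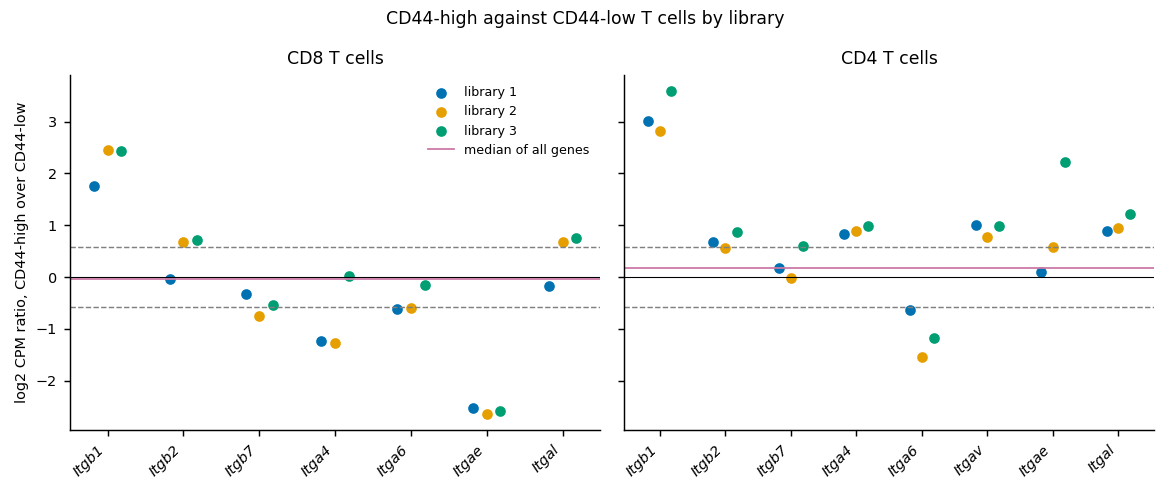
Log2 ratio of CPM in CD44-high over CD44-low cells for the members that passed the filter in the CD8 gate (7) and the CD4 gate (8), with 1 point per library. Dashed lines mark 1.5-fold, and the coloured line marks the median of all genes. Itgb1 lies above the upper dashed line in both gates in all 3 libraries, and Itgae lies near its median of -2.59 in the CD8 gate and above 0 in the CD4 gate.

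In CD4 T cells 4 members were higher in CD44-high cells and 1 was lower, of 8 that passed the filter, where 6.35% of 6441 genes were called higher and 1.32% lower. Itgb1 had 111, 188 and 122 CPM in CD44-low and 892, 1335 and 1471 in CD44-high cells, a median of 8.04-fold (7.1 to 12.1). Its VLA-4 partner Itga4 had 514, 454 and 373 against 919, 839 and 736 CPM, 1.85-fold (1.79 to 1.97). Itgal had 163, 173 and 149.8 against 302, 335 and 346 CPM, 1.93-fold (1.85 to 2.31). Itgav had 32.3, 37.4 and 23.8 against 65.1, 64.1 and 46.8 CPM, 1.97-fold (1.71 to 2.02). Itga6, the laminin receptor chain, had 104, 119 and 140.4 against 66.5, 41 and 62 CPM and was lower by 2.26-fold (1.56 to 2.92). Itga6 was no longer called at a 2-fold limit, with posteriors of 0.9 and 0.1, after thinning, or without the regulatory or the effector memory cluster, although its median stayed lower in CD44-high cells each time. For each of these 5 genes the CD44-low and CD44-high levels did not overlap. They were picked by the call, which favours this, and the share of all genes without overlap is not given here.

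The 3 members not called in CD4 T cells were Itgb2, Itgb7 and Itgae. Itgb2 had 166, 151 and 138 against 263, 223 and 253 CPM, at a median of 1.59-fold with its lowest library at 1.47, just under the limit. Itgae had 21.1, 17.6 and 4.49 CPM against 22.6, 26.3 and 21.1. At a pooled 9.86 against 23.4 CPM, it passed the filter only in CD44-high cells, which favours a higher value there. Cells of the regulatory cluster made 61.7%, 71.6% and 62.4% of CD44-high and 32.1%, 37.8% and 17.3% of CD44-low CD4 cells, and ribosomal protein genes made 20.9% of the RNA of CD44-high against 29.1% of CD44-low cells. Without the regulatory cluster Itgb1, Itgal and Itgb2 were called higher, and Itga4, Itgav and Itga6 were not called. Of all genes 8.53% were then called higher and 1.97% lower. The median log2 difference over all genes was 0.18, and over the 8 members 0.78. A scaling by the trimmed mean of M values shifted all genes by 0.21 in log2 and gave 245 genes higher and 185 lower in place of 409 and 85. Under it Itgb1, Itga4 and Itgal were still called higher and Itga6 lower, and Itgav was not called.

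The other genes of the integrin pathway were taken as 4 lists: 17 other integrins, 16 genes of the activation machinery, 4 inhibitors and 12 ligands. They are read against the same shares of all genes, which for CD8 T cells were 1.97% higher and 1.58% lower and for CD4 T cells 6.35% higher and 1.32% lower. A gene that reached 20 CPM only where it was high was favoured for a call by the filter. In the CD8 gate the only other integrin that passed the filter was of this kind, the collagen receptor chain Itga1, at 2.50 CPM in CD44-low and 26.9 in CD44-high cells. Of 14 tested activation genes 1 was called, Zyx (zyxin, a focal adhesion protein), 2.55-fold (2.17 to 3.31) higher. None of 4 inhibitors and 3 ligands was called (0 of each). In the CD4 gate Itga1 had 0.789 against 30.9 CPM and Itgb8 10.9 against 46.1, both called higher and both past the filter only in CD44-high cells, and Itgb3, past it in both, was called lower at 50.2 against 20.7. Of the activation genes 0 of 15 were called, of the inhibitors 0 of 4, and of the 4 ligands Icam1, at 19.3 against 44.6 CPM, and Spp1 (osteopontin), at 2.24 against 71.5, were called higher and had passed the filter only in CD44-high cells.

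Over the classes, 9 of the 17 other integrins reached 20 CPM in at least 1 class. The platelet fibrinogen receptor chains Itga2b and Itgb3 were highest in platelet-like cells, at 1030.3 and 467 CPM. Itgad, which lies 3.72 kb beyond Itgax and pairs with β2, was highest in macrophage-like cells at 358 CPM, as was Itga9 at 162. Itga2 was highest in NK-like cells at 226 CPM and Itgb2l in neutrophil-like cells at 149.8. Of the ligands, Vcam1, bound by VLA-4, was highest in macrophage-like cells at 2404 CPM, where the CD106 antibody to VCAM-1 also took its largest share of antibody counts (2.34%). Fn1 (fibronectin) was highest in monocyte-like cells at 1442 CPM, Cdh1 (E-cadherin) in basophil-like cells at 408, and Icam1 in dendritic-like cells at 112. Among activation genes Skap1 was highest in T-like cells at 382 CPM and its relative Skap2 in neutrophil-like cells at 404, while Fermt3 (kindlin-3) and Tln1 (talin) were highest in platelet-like cells at 697 and 1223.

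The antibodies measured 2 of the chains as protein, in counts that took no part in the clustering. The CD11b antibody made 4.1%, 4.64% and 4.23% of antibody counts in monocyte-like cells and 2.92%, 3.08% and 2.37% in neutrophil-like cells of libraries 1, 2 and 3, with median counts of 96 and 73 per cell. For the protein monocyte-like cells thus stood above neutrophil-like cells in all 3 libraries, and for the CPM of Itgam below them in all 3. The RNA order depends on the scaling to depth, at medians of 6687.5 UMIs in monocyte-like and 2300 in neutrophil-like cells. Without thinning, 79.2% of monocyte-like and 65.1% of neutrophil-like cells had an Itgam UMI, the same order as the protein. Dendritic-like cells had a share of 1.23% and NK-like cells 0.924%, against 0.207% in B-like and 0.208% in T-like cells, with a median count of 3 in both. By a mixture fitted in each library, 98.1% (96.6–99.1) of monocyte-like and 97.8% (96.5–98.7) of neutrophil-like cells were positive. Dendritic-like cells were positive in 50.8% (45.6–56.1) and NK-like cells in 32% (27.9–36.3), against 3.06% (2.75–3.41) in B-like and 0.892% (0.658–1.18) in T-like cells.

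The CD11c antibody made 5.43%, 6.6% and 5.57% of antibody counts in dendritic-like cells, at a median count of 140.5. The next classes were plasmacytoid-like cells at 1.95%, NK-like cells at 1.39%, macrophage-like cells at 1.26% and monocyte-like cells at 1.02%, against 0.55% in B-like cells. Dendritic-like and NK-like cells, whose Itgax RNA overlapped, were thus far apart for the protein. The 2 modes of CD11c were not separated (Ashman's D, the distance of the modes in units of their spread, was 0.763, 0.637 and 0.548), so no cells were called positive for CD11c. For CD11b it was 3.85, 3.32 and 3.93. In monocyte-like cells both antibodies followed the subset: CD11c made 0.543% in classical and 1.5% in non-classical cells, and CD11b 3.44% and 5.38%, although Itgam RNA did not differ between them. Among dendritic-like cells 75.4% of type 2 and 26.3% of type 1 cells were CD11b positive, and CD11c made 5.62% and 5.14%.

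**Figure D5:**
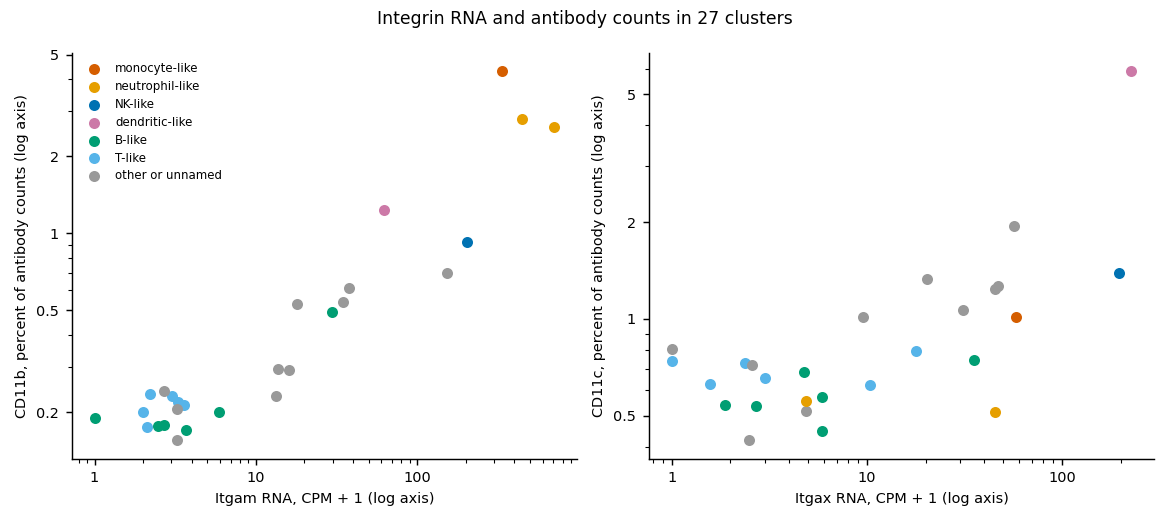
RNA level of Itgam and Itgax (CPM + 1, log axis) against the percent of antibody counts taken by CD11b and CD11c (log axis), with 1 point per RNA cluster, coloured by class, and all libraries pooled. Over the 27 clusters Spearman's rho is 0.85 for Itgam with CD11b and 0.57 for Itgax with CD11c, and the dendritic-like cluster lies apart from all others for CD11c at 5.9%.

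Over the 27 clusters Spearman's rho of RNA level and antibody share was 0.85 for Itgam and CD11b and 0.57 for Itgax and CD11c. Within libraries 1, 2 and 3, over 20, 20 and 22 clusters, it was 0.872, 0.833 and 0.626 for the first pair and 0.526, 0.562 and 0.46 for the second. Taken by the median antibody count in place of the share, the second pair gave 0.844. These values describe clusters that share libraries and depth.

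Cells positive for CD11b were also compared with negative cells of the same class for the RNA of all members. In the B1 cluster 188 of 774 cells (24.3%) were positive, 10.5%, 36.8% and 14% by library, and these were 57% of all 330 positive B-like cells. Itgam was 11.7-fold (7.62–18.4) higher in positive than in negative B1 cells, with 11-fold in library 1, 6.06-fold (3.76–10.1) in library 2 and all of its UMIs in positive cells in library 3. Of the Itgam UMIs, 77 of 93 in positive and 23 of 29 in negative cells came from library 2. The pooled 11.7-fold mixes libraries that differ in both Itgam and the share of positive cells. Itgb1 was 1.94-fold (1.79–2.1) higher, at 1.63, 1.85 and 2.34 by library, and Itgb7 was at a ratio of 0.956 (0.781–1.16). For Itgax, 79 of 83 UMIs in positive and 61 of 63 in negative cells came from library 2, in which it was 2.34-fold (1.66–3.33) higher in positive cells. The pooled 4.79-fold (3.41–6.76) mixes libraries that differ in both Itgax and the share of positive cells. In NK-like cells Itgam was 2.45-fold (2.01–3) higher in positive cells while Itgax was at 0.856 (0.683–1.07) and Itgal at 0.987 (0.857–1.13). In dendritic-like cells Itgam was 8.56-fold (4.76–16.9) higher in positive cells, and Itgae was at a ratio of 0.231 (0.117–0.432). Itgb7 was 2.24-fold and 2.96-fold higher in libraries 1 and 3 and at 1.09 (0.722–1.67) in library 2. Neutrophil-like and monocyte-like cells had 16 and 10 negative cells, too few to compare.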

How the data were processed

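The authors deposited whole-number UMI counts per gene and antibody and barcode in 1 matrix that joins all libraries. The values are not normalized. Cell Ranger 5.0.1 stands in the matrix header. Cell Ranger, Seurat and the build mm10 are listed by the submitters' processing notes. Per the study's methods the libraries were aggregated, but an equalization of depth and a use of strand in counting are steps not given in the sources used here. Kept RNA UMIs were 20032690, 32270524 and 35697547 in libraries 1, 2 and 3. The barcode suffix served as library name only.

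Barcodes with 300 to 5000 genes and at most 10% mitochondrial UMIs were kept. Cells were clustered (scanpy 1.11.5, igraph 0.11.9, Louvain, resolution 0.8, finer subsets at 1.2, 20 components, 20 neighbours, 2000 variable genes without integrin genes, UMI number regressed) and named from marker lists, with limits on the marker scores set after seeing the data. Doublets were kept, and the 519 Scrublet calls were removed as an alternative. Antibody gates were mixtures of 2 per library on ln(count + 1) (scikit-learn 1.9.0). Folds used summed counts, with a library under 3 counts set to 3. The fold rule was also run on simulated Poisson counts, drawn for all libraries from 1 pooled CD44-low profile per gate. Those counts hold no differences between libraries or in the clusters of a gate. They therefore cannot show how the rule behaves on these cells, and no conclusion is drawn from them. Intervals were computed with scipy 1.17.1 at 95%. Samples could not be used as replicates, so no model was fitted and no p-value is given. All 10 members were described. From the pathway lists, genes of at least 20 CPM in a class could be named, those past the fold rule first, and for each member the 3 genes with the most similar pattern, of which 1 is not reported here. The members and lists were chosen with earlier results of these data known. Alternatives varied the filters, gates, fold limit, scaling, depth, clustering, doublets and libraries.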

Additional observations from a re-analysis of the deposited data

Results flagged for a closer look

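Itgae, the αE chain, had log2 differences of opposite sign between CD44-high and CD44-low cells in the 2 T cell gates in all 3 libraries. The median log2 difference of CD44-high minus CD44-low cells was -2.59 in CD8 T cells, where Itgae was lower in CD44-high cells of 3 of 3 libraries. It was 0.58 in CD4 T cells, where Itgae was above its CD44-low level in 3 of 3 libraries by 1.07 to 4.69-fold without passing the rule of 1.5-fold in each. In the CD4 gate the counting intervals overlapped in library 1 (11.8–34.7 against 13.2–36.2 CPM) and library 2 (12.5–24 against 17–38.8), and were apart in library 3 (2.78–6.87 against 12.5–33.3). The difference between the gates was not tested. Regulatory cells, in which Itgae had 41.8 CPM against 1.71 in the naive CD4 cluster, made 61.7%, 71.6% and 62.4% of the CD44-high CD4 cells by library. Their part in this difference was not tested beyond leaving the regulatory cluster out. Itgae was not called in CD4 T cells with or without that cluster.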

How the results depend on the processing

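With 1 pool of mice per library, unmapped libraries and counting intervals only, the values limit statements to these cells. No paired test was run, because no result here comes from a test. The CD44 comparison was made within each library by a rule of size, and a model with library as a block was not run. The top class was kept for 7 to 10 of the 10 members under the alternatives, and for 9 to 10 when 1 library was left out (Itgae changed without library 1, Itgb1 without library 2). Without the mitochondrial limit it changed for Itga6, Itgae and Itgax, where the dendritic-like, plasmacytoid-like and platelet-like classes were not recovered.

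In CD8 T cells 2 members were called, 1 higher and 1 lower in CD44-high cells. RNA clusters in place of CD44 gave 5, 3 higher (Itgb1, Itgb2, Itgal) and 2 lower (Itgae, Itgb7). A 5 CPM filter and leaving out the effector memory cluster (added after seeing the data) each gave 2 higher. The 5 CPM filter added Itgax, which passed it only in CD44-high cells. Leaving out 1 library gave 2 to 4 called, 1 to 3 higher and 1 to 3 lower: without library 1 Itgb2 and Itgal were added, and without library 3 Itga4 and Itga6. In CD4 T cells 5 were called, 4 higher and 1 lower. A 2-fold limit left 1, Itgb1, with 0 lower (Itga6 was lost here and wherever 0 lower is given). Thinning left 3 and leaving out the regulatory cluster 3, both with 0 lower. Over all genes these 2 settings called 5.52% and 10.5%, against 7.67% in the main setting. Posteriors of 0.9 and 0.1 gave 6 and leaving out the effector memory cluster 5, both also with 0 lower. Here 9.61% and 8.22% of all genes were called. Leaving out 1 library gave 5 to 6 called, beside 10.7%, 10.7% and 11.1% of genes without library 1, 2 and 3. Over all genes, 207 CD8 calls became 93 at 2-fold, 408 at 5 CPM, 390 with RNA clusters, 331 without library 1 and 396 without library 3, and 494 CD4 calls became 204, 766 and 869 under the first 3 of these. The CD8 calls were 235 without library 2 and 272 without the effector memory cluster.

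Members that spread between libraries went from 1 to 2 at 20 CPM and 0 without the B1 cluster (added after seeing the data) in B-like cells, and from 3 to 0 at 2-fold in T-like cells. In neutrophil-like cells 4 became 2 at 2-fold, 7 at 20 CPM and 1 without the granule cluster (also added). In monocyte-like cells 3 became 1 at 2-fold and 1 with the mean of per-cell CPM. Over all genes the 132, 217, 1741 and 647 calls in these 4 classes became 22, 66, 906 and 93 at 2-fold and 298, 521, 3417 and 1657 at 20 CPM, and 25 and 1137 without the 2 clusters named. Spearman's rank correlation of Itgax and CD11c over clusters went from 0.57 to 0.84 by median count and 0.64 at resolution 0.4. Of 188 member differences under these alternatives 161 kept their call or stayed uncalled, 14 newly passed and 13 no longer passed. Where a call was made in the main setting or newly made, 0 reversed. The direction of members that stayed uncalled was not compared.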

Other observations

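For each member the genes with the most similar pattern were taken by Pearson's r of log2(CPM + 10) over 26 class-by-library sums of at least 30 cells, among 6343 genes of at least 50 CPM in a class. The points share libraries, and r is given as a description. Itgb2 ran closest to Zyx (0.951), Abr (0.945) and Map7d1 (0.939), and Itgam to Cers6 (0.953), Anxa1 (0.923) and Anxa2 (0.910). Itgax ran closest to Efhd2 (0.897), Arhgap18 (0.890) and Cd244 (0.884), and Itgal to Ppp2r5a (0.903), Nfil3 (0.886) and Fxyd5 (0.874). Itgae ran closest to Cd8a (0.839), Tbc1d4 (0.815) and Tmem158 (0.777), and Itga6 to Ifi208 (0.928), Scml4 (0.921) and 2810001G20Rik (0.914). Itgb1 had Ptger4 (0.891) and Rab18 (0.868), Itgb7 had Tmsb10 (0.934), Rwdd1 (0.902) and Eif4e2 (0.897), Itga4 had Rbpms (0.885), Dusp5 (0.839) and Padi2 (0.836), and Itgav had Mapre2 (0.919), Napg (0.908) and Npc1 (0.903).

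In 2 clusters of low depth the level of Itga4 was above that of a deeper cluster of the same class. The low-depth B-like cluster had 713 CPM of Itga4 against 364 in the largest B-like cluster, at median depths of 1176 and 3346 UMIs per cell, and ribosomal protein genes made 7.5% of its RNA against 23.5%. The low-depth T-like cluster had 772 CPM of Itga4 against 285 in the naive CD4 cluster, at median depths of 1304 and 4954 UMIs and ribosomal shares of 8.5% and 32.7%. The part of these values in the levels was not tested.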
